A study of Mus musculus with 7 samples.

Results

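The genes described here encode the nuclear-encoded subunits of the oxidative phosphorylation complexes of mouse liver, with a few of their assembly factors. They were chosen by name: every gene whose symbol on the array platform starts with Ndufa, Ndufb, Ndufc, Ndufs, Ndufv, Uqcr, Cox4, Cox5, Cox6, Cox7, Cox8 or Atp5, and Sdha, Sdhb, Sdhc and Sdhd. Of the 16819 genes compared on the arrays, 79 met this rule. They comprised 32 genes of complex I, 4 of complex II, 7 of complex III, 15 of complex IV and 12 of complex V (the ATP synthase). The other 9 were 7 complex I assembly factors (the Ndufaf genes), Cox7a2l, which helps join complexes into supercomplexes, and Ndufa4l2, a hypoxia-inducible relative of Ndufa4. The rule did not use the measured signals to choose a gene, and no filter on low signals was applied, so all 79 were tested. Subunits encoded by mitochondrial DNA were not analysed here, and of nuclear-encoded subunits outside the name rule only Cyc1 is described.

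Oxidative phosphorylation is the last stage of fuel oxidation in the inner mitochondrial membrane. Complexes I and II pass electrons from NADH and succinate to coenzyme Q, complex III passes them on to cytochrome c, and complex IV passes them to oxygen. Complexes I, III and IV pump protons as they do so, and complex V uses the returning protons to make ATP. In hepatocytes this ATP pays for glucose and urea synthesis, and the same chain reoxidises the NADH and FADH2 made by fatty acid oxidation. Each complex has a catalytic core and, in mammals, many small accessory subunits that shape and stabilise it.

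RNA from whole liver was hybridised to 7 Affymetrix arrays, 1 liver sample each. All mice were males with floxed Dicer1 alleles (Dicer1 fl/fl) on a mixed genetic background of 129S4 and C57BL/6. Dicer1 makes the ribonuclease that cuts microRNA precursors to mature microRNAs. Livers were taken 0, 2 or 4 weeks after AAV8-Ttr-Cre, an adeno-associated virus that carries the Cre recombinase under the transthyretin (Ttr) promoter, which is active in hepatocytes, so other liver cells would keep Dicer1. There were 3 arrays at 0 weeks (labelled control), 2 at 2 weeks and 2 at 4 weeks, all after a 4 hour fast, and the mice had been injected at 8 to 10 weeks of age. A group given virus that lacked Cre is not among the samples, nor are untreated mice at the later times, so the effects of Dicer1 loss, of the virus, of Cre and of elapsed time cannot be told apart. In whole liver, fewer cells of a type and less RNA per cell cannot be told apart either.

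The values are log2 signals as deposited by the authors, with array medians between 7.07 and 7.09. How they were normalised is not stated in the sources used here. Dicer1 read 8.73, 8.71 and 8.58 at 0 weeks, 8.03 and 7.79 at 2 weeks, then 7.97 and 8.05 at 4 weeks, so it was lower on all 4 arrays after Cre. The exons its probes cover are not stated, and this signal checks the labels only where they reach the deleted part. Among markers fixed for hepatocytes, 8 of 10 were measured, Alb among them, and their summed linear signal was 114000 to 116000 on the 4 arrays after Cre and 121000 to 124000 on the 3 control arrays. Of these 8 markers, 1 was called after Cre. It was Tat, a hepatocyte amino acid enzyme, which fell by 0.62 on the log2 scale (limma, adjusted p = 0.0334). Tat is part of that sum, and the 8 markers had a median of -0.01 after Cre (range -0.62 to 0.10). The 5 stellate cell markers summed to 5770 to 6550 after Cre and 5320 to 5470 in controls, with 0 of 5 passing the test. Of the 5 markers of sinusoidal endothelium, Clec4g rose by 0.60 at 4 weeks (limma, adjusted p = 0.0438), and their sum was 3800 to 5780 after Cre and 3990 to 4190 in controls. The part of these shifts in the results was not tested. The arrays of each group are labelled as biological replicates, with no animal named, and p-values measure only the spread between these arrays.

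The 79 genes as a group lay below their control levels at both times. Their median log2 fold change was -0.25 at 2 weeks and -0.28 at 4 weeks, against 0.00 and 0.01 for all 16819 genes. Of the 79, 69 were below 0 at 2 weeks and 65 at 4 weeks. The shifts were small for single genes: 12 members at 2 weeks and 16 at 4 weeks lay more than 0.5 below control on the log2 scale. The plot of fold changes by complex gives every member.

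**Figure D1:**
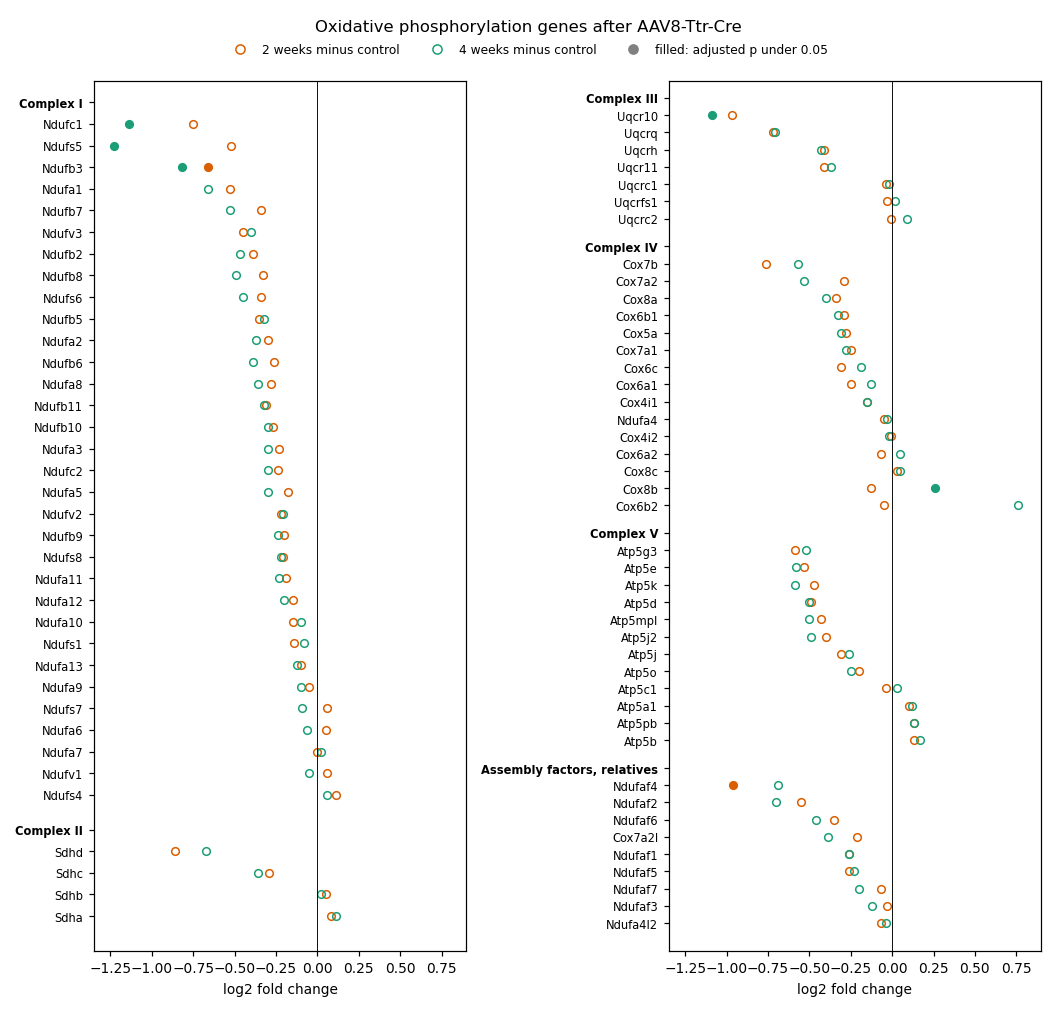
Log2 fold change (x axis) of each of the 79 genes (y axis, grouped by complex) at 2 weeks (orange) and at 4 weeks (green) against control; filled circles passed an adjusted p of 0.05. Most circles lie left of 0, with medians of -0.25 at 2 weeks and -0.28 at 4 weeks, while Sdha, Sdhb, Uqcrc1, Uqcrc2, Atp5a1 and Atp5b lie near 0.

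A gene was called changed when its adjusted p was under 0.05 (limma over all genes, Benjamini-Hochberg). At 2 weeks 2 of the 79 genes fell (2.53%, against 2.47% of all genes), namely Ndufb3 and Ndufaf4, and 0 rose (3.46% of all genes rose). At 4 weeks 4 fell (5.06%, against 4.62% of all genes), namely Ndufb3, Ndufc1, Ndufs5 and Uqcr10, and 1 rose, Cox8b (5.15% of all genes rose). At each time alone, the share of members called lower was thus near that of all genes. With the arrays of both times combined as after Cre, 12 fell (15.2%, against 6.12% of all genes) and 0 rose (6.79% of all genes rose). Without adjustment, 32 members (40.5%) had p under 0.05 at 2 weeks, 43 (54.4%) at 4 weeks and 48 (60.8%) after Cre, against 23%, 24.8% and 27.4% of all genes. Between 4 and 2 weeks 0 of 79 differed (0.00595% of all genes did), with 3 members (3.8%) at an unadjusted p under 0.05, below the 7.43% of all genes. The count after Cre depended on single arrays: it was 36 without 2 week replicate 1 (8.1% of all genes fell in that fit) and 12 without 2 week replicate 2 (4.71%). It was 3, 1 and 1 without control replicate 1, 2 or 3 (2.13%, 1.3% and 1.43%), and 1 without 4 week replicate 1 or 2 (2.21% and 2.31%). The share of members called lower was thus not above that of all genes without control replicate 2 or 3 or either 4 week array. When only genes at or above the median signal were tested, 27 of 71 members fell, against 16% of all genes.

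The order of the arrays was also compared. At 2 weeks, 45 of 79 members (57%) were lower on both arrays than on every control array, against 17.5% of all genes, and 6 (7.59%) were higher on both, against 17.3%. At 4 weeks, 55 (69.6%) were lower without overlap, against 18.2% of all genes, and 6 (7.59%) were higher, against 21.6%. On all 4 arrays after Cre, 43 members (54.4%) lay below all 3 controls, against 12.2% of all genes. The 3 that lay above all controls (3.8%, against 12.9% of all genes) were Sdha, Atp5a1 and Atp5b. Comparisons at 2 weeks, at 4 weeks and after Cre use the same 3 control arrays. A value shared between 2 groups keeps a gene from counting as free of overlap. Values repeated on 2 or more arrays occurred in 16 of the 79 members and in 58.4% of all genes. Of the members, 71 lay at or above the median signal of all genes. The shares of all genes are thus not matched to the members in repeated values or signal, and no matched share was computed.

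The arrays after Cre differed among themselves in how far the members shifted. The members' median difference from the control mean was 0.00, -0.01 and 0.03 at 0 weeks, -0.12 and -0.38 at 2 weeks, then -0.23 and -0.31 at 4 weeks (SD within groups 0.10). At 2 weeks, replicate 2 read lower than replicate 1 for 60 of the 79 genes, and at 4 weeks for 65. On 2 week replicates 1 and 2, 51 (64.6%) and 61 (77.2%) members lay below all controls, against 28.8% and 33.3% of all genes. On 4 week replicates 1 and 2, 58 (73.4%) and 63 (79.7%) did, against 27.9% and 26.7%. Without 2 week replicate 1 the median at 2 weeks was -0.38, and without 2 week replicate 2 it was -0.12.

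**Figure D2:**
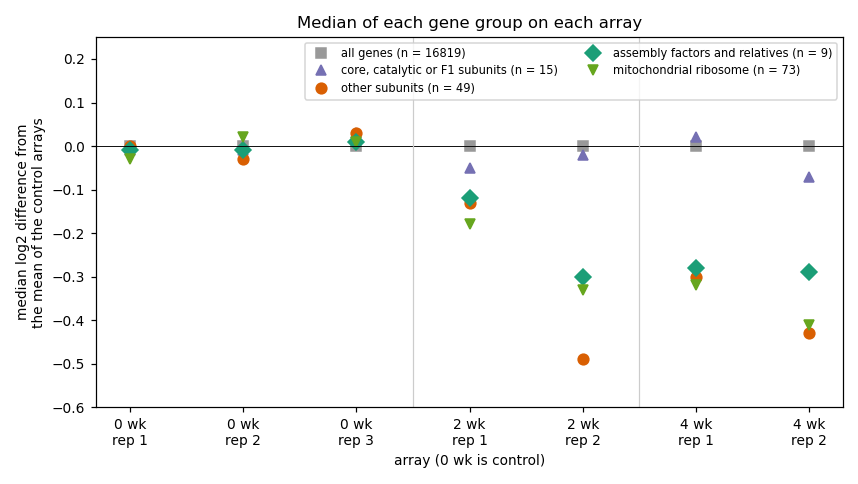
Median log2 difference from the control mean (y axis) of 5 gene groups on each of the 7 arrays (x axis; 0 wk is control). On the arrays after Cre, the 15 core, catalytic or F1 subunits stay between -0.07 and 0.02, while the 49 other subunits lie between -0.49 and -0.13.

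Of the 32 genes of complex I, the NADH dehydrogenase, 5 fell after Cre, all of them among its 27 accessory subunits. Of all 79 members 12 fell (15.2%), against 6.12% of all genes. Ndufb3, which lies in the membrane arm, read 8.63, 8.76 and 8.58 at 0 weeks, 8.13 and 7.87 at 2 weeks, then 7.85 and 7.82 at 4 weeks. The groups did not overlap, and both 4 week arrays were lower than both 2 week arrays. The difference between 4 and 2 weeks, -0.16, did not pass the test (limma, adjusted p = 0.78). At 2 weeks Ndufb3 fell by 0.66 (limma, SE 0.09, adjusted p = 0.0233, n = 2 and 3). At 4 weeks it fell by 0.82 (SE 0.09, adjusted p = 0.0112), and it was 1.67-fold lower after Cre. It passed the test after Cre in 15 of 16 alternative settings and at 2 weeks in 8 of 16, while the other 11 genes that fell after Cre passed there in 6 (Ndufb8) to 10 of 16.

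Ndufc1, a small membrane subunit, had 2 probe sets. The probe set used read 10.69, 10.64 and 10.73 at 0 weeks, 10.20 and 9.66 at 2 weeks, then 9.58 and 9.5 at 4 weeks. Its other probe set read 9.44, 9.43 and 9.47, then 9.0 and 8.31, then 8.56 and 8.54. In both probe sets every array after Cre was below every control. Ndufc1 fell by 1.14 at 4 weeks (SE 0.15, adjusted p = 0.0166, limma), a 2.21-fold lower level. At 2 weeks it was at -0.75 (SE 0.15, adjusted p = 0.0517), just short of the threshold.

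Ndufs5, an accessory subunit on the side of the intermembrane space, read 9.17, 9.65 and 9.77 at 0 weeks, 9.07 and 8.95 at 2 weeks, then 8.26 and 8.33 at 4 weeks. Its control arrays spread widely (9.53 ± 0.32, SD, n = 3), and the 2 week arrays lay just under the lowest of them. Ndufs5 fell by 1.23 at 4 weeks (SE 0.18, adjusted p = 0.0193, limma), a 2.35-fold lower level and the largest single-time fall among the 79 genes that passed the test. At 2 weeks it was at -0.52 (SE 0.18, adjusted p = 0.165). The difference between 4 and 2 weeks, -0.71, did not pass the test (adjusted p = 0.542, limma), although the arrays of those times did not overlap.

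Ndufv3 and Ndufb8 passed only with both times combined. Ndufv3, an accessory subunit of the NADH-binding module, averaged 9.64 ± 0.11 at 0 weeks (SD, n = 3), 9.19 ± 0.17 at 2 weeks and 9.23 ± 0.14 at 4 weeks (SD, n = 2 each). Its arrays after Cre did not overlap the controls. It fell by 0.43 after Cre (SE 0.09, adjusted p = 0.0365, limma). Ndufb8, a membrane-arm subunit often used as a protein marker of assembled complex I, read 9.29, 9.51 and 9.36 at 0 weeks, 9.15 and 8.95 at 2 weeks, then 9.03 and 8.76 at 4 weeks. It fell by 0.41 after Cre (SE 0.10, adjusted p = 0.0469), the value nearest the threshold among the 12, and Ndufaf2, Sdhd and Ndufb5 (adjusted p = 0.0551, 0.0554 and 0.0565) lay nearest on the other side.

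The other 22 of the 27 accessory subunits of complex I passed no test. Among them Ndufa1 was at -0.59 after Cre (SE 0.17, adjusted p = 0.0814, limma) and Ndufb7 at -0.44 (SE 0.12, adjusted p = 0.0701), both below all controls on every array after Cre. Ndufa10 was at -0.13 and Ndufc2 at -0.27. Ndufs4, which joins the complex late in assembly, was at 0.08 (95% interval -0.02 to 0.19), and Ndufa7 at 0.01, with the value 8.43 listed on 5 of the 7 arrays. Over all 27 accessory subunits the median was -0.31 after Cre, and 25 were below 0.

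The 5 measured core subunits of complex I, which carry its flavin and iron-sulphur clusters, had a median of -0.11 after Cre, and 0 of 5 were called. Ndufv1, which binds NADH and the flavin, read 10.55, 10.46 and 10.58 at 0 weeks, 10.64 and 10.53 at 2 weeks, then 10.54 and 10.42 at 4 weeks. These ranges overlap, and the difference after Cre was 0.01 (95% interval -0.13 to 0.15). Ndufs7 was at -0.01 (-0.14 to 0.12), and Ndufs1 at -0.11 (-0.23 to 0.00). Ndufs8 and Ndufv2 were both at -0.22, with adjusted p-values of 0.0641 and 0.15 (limma).

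The 7 assembly factors of complex I all lay below 0 after Cre, with a median of -0.26, and 2 fell. Ndufaf4, which binds the early assembly intermediate, read 9.10, 9.09 and 9.11 at 0 weeks, 8.46 and 7.83 at 2 weeks, then 8.51 and 8.32 at 4 weeks. The controls were nearly identical, and the lower 2 week array lay well below the other. Ndufaf4 fell by 0.96 at 2 weeks (SE 0.18, adjusted p = 0.0453, limma) and by 0.82 after Cre (SE 0.15, adjusted p = 0.0257). At 4 weeks it was at -0.69 (SE 0.18, adjusted p = 0.076). Without 2 week replicate 2, its value at 2 weeks was -0.64, and without replicate 1 it was -1.27.

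Ndufaf6, which acts early in complex I assembly, read 7.61, 7.83 and 7.98 at 0 weeks, 7.47 and 7.45 at 2 weeks, then 7.37 and 7.33 at 4 weeks. All 4 arrays after Cre lay below all controls, and it fell by 0.40 after Cre (SE 0.09, adjusted p = 0.0434, limma). Ndufaf2 was at -0.62 (SE 0.15, adjusted p = 0.0551) and Ndufaf1, which forms part of the mitochondrial complex I assembly complex, at -0.26 (SE 0.09, adjusted p = 0.116). Of the relatives outside assembly of complex I, Cox7a2l was at -0.30 (SE 0.08, adjusted p = 0.0716) and Ndufa4l2 at -0.06 (SE 0.04, adjusted p = 0.441).

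Complex II, the succinate dehydrogenase, also belongs to the TCA cycle. Sdha and Sdhb, the catalytic pair that holds the flavin and the iron-sulphur clusters, did not pass the test at any time. Sdha read 12.55, 12.55 and 12.52 at 0 weeks, 12.61 and 12.64 at 2 weeks, then 12.72 and 12.58 at 4 weeks, so all 4 arrays after Cre lay slightly above the controls. Its difference after Cre was 0.10 (95% interval -0.01 to 0.20, adjusted p = 0.231, limma). Sdhb read 10.53, 10.63 and 10.68 at 0 weeks, 10.64 and 10.68 at 2 weeks, then 10.72 and 10.54 at 4 weeks, with full overlap and a difference of 0.03 (-0.12 to 0.19).

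The membrane anchors of complex II, Sdhc and Sdhd, which bind the haem and coenzyme Q, lay lower on every array after Cre. Sdhc read 11.23, 11.32 and 11.22 at 0 weeks, 11.07 and 10.86 at 2 weeks, then 10.99 and 10.81 at 4 weeks. It fell by 0.33 after Cre (SE 0.07, adjusted p = 0.045, limma). Sdhd read 10.95, 10.90 and 11.04 at 0 weeks, 10.51 and 9.70 at 2 weeks, then 10.25 and 10.34 at 4 weeks. Its mean difference was larger, at -0.76, but the 2 week arrays were far apart, and it did not pass (SE 0.19, adjusted p = 0.0554). Whether Sdhc and Sdhd changed by a different amount than Sdha and Sdhb was not tested.

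Promoter sequence was set beside these results because NRF1 and GABPA are transcription factors known to bind the promoters of many nuclear-encoded respiratory genes. RefSeq promoter windows (build GRCm38.p6, 250 bases before to 50 after the start) were matched for 64 of the 79 genes, and both strands were searched for the NRF1 core TGCGCANGC (N is any base) and the GABPA core CCGGAAG, which do not contain each other. The NRF1 core stood in 10 of 64 members (15.6%), against 7.39% of 13216 array genes with a window and 4.7% of all 27025 genes with one. The GABPA core stood in 14 of 64 (21.9%), against 15.1% and 9.93%. Of the 12 genes that fell after Cre, 10 had a window, of which 2 held the NRF1 core (Ndufaf4 and Ndufs5) and 0 the GABPA core. Of the 15 core, catalytic or F1 subunits, 12 had a window, of which 2 held the NRF1 core and 3 the GABPA core. The 250 bases before the start are printed for both fallen genes with the NRF1 core and for Sdha, which was not called and holds it at 2 places, with the NRF1 core in capitals. Ndufaf4 is at chr4:24897833-24898082 on the plus strand, Ndufs5 at chr4:123718187-123718436 on the minus strand and Sdha at chr13:74350241-74350490 on the minus strand. Each sequence is given 5' to 3' in the direction of transcription.
Ndufaf4: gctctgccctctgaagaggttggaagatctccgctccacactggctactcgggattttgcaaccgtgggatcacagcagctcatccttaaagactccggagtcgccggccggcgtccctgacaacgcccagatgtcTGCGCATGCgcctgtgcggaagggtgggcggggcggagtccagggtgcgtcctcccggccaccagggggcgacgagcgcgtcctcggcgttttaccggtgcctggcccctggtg
Ndufs5: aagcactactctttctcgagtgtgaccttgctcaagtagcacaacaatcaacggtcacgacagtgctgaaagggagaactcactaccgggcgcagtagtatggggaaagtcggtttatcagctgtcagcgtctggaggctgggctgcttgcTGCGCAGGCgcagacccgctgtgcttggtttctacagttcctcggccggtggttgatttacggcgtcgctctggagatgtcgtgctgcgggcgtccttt
Sdha: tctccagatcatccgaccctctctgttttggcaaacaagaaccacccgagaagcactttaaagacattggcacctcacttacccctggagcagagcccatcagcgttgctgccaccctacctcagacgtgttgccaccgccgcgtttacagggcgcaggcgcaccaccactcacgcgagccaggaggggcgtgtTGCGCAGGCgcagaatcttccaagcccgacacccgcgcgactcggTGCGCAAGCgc
Ndufaf4 has a second NRF1 core at the start itself, outside the printed bases. A match of letters is not evidence of binding, and the core stood before genes that fell and before genes that were not called.

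**Figure D3:**
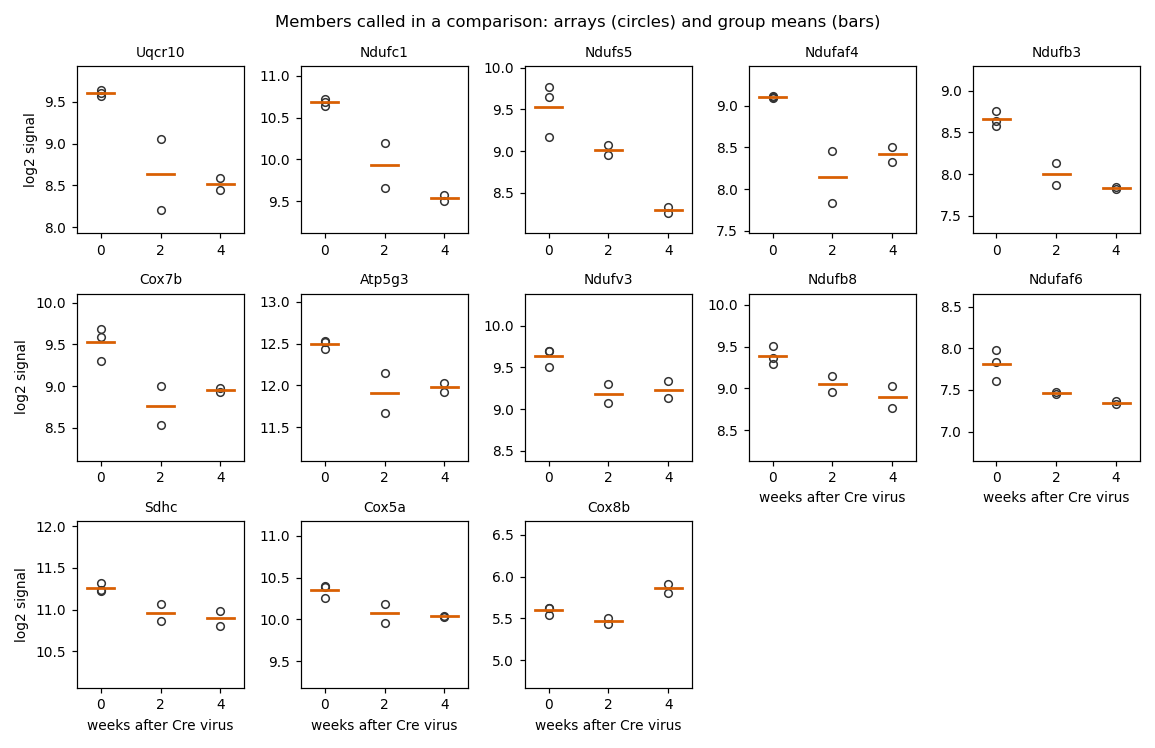
Log2 signal (y axis, each panel spanning 2 units) against weeks after the Cre virus (x axis) for the 13 genes called in any comparison; circles are arrays and bars are group means. In the 12 genes that fell, every array after Cre lies below every control array, and Cox8b alone is higher at 4 weeks than at 0 weeks.

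Complex III, the cytochrome bc1 complex, held the largest fall after Cre among the 79 genes. Uqcr10, a small subunit next to cytochrome c1, read 9.64, 9.57 and 9.61 at 0 weeks, 9.05 and 8.21 at 2 weeks, then 8.59 and 8.44 at 4 weeks. The 4 arrays after Cre were clear of the tightly grouped controls, and the 2 week arrays were the most spread (8.63 ± 0.60, SD, n = 2). Uqcr10 fell by 1.09 at 4 weeks (SE 0.24, adjusted p = 0.0459, limma), a 2.13-fold lower level, and by 1.03 after Cre (SE 0.20, adjusted p = 0.0276). At 2 weeks it was at -0.97 (SE 0.24, adjusted p = 0.0736).

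The 3 other accessory subunits of complex III were below all controls on every array after Cre and passed no test. Uqcrq was at -0.71 after Cre (SE 0.21, adjusted p = 0.0824, limma), Uqcrh, the hinge protein, at -0.42 (SE 0.13, adjusted p = 0.108), and Uqcr11 at -0.39 (SE 0.12, adjusted p = 0.104). The core proteins and the Rieske iron-sulphur protein lay near their control levels. Uqcrc1, core protein, read 11.95, 11.91 and 11.95 at 0 weeks, 11.91 and 11.89 at 2 weeks, then 11.96 and 11.88 at 4 weeks. Its difference after Cre was -0.03 (95% interval -0.12 to 0.06). Uqcrc2 was at 0.04 (-0.05 to 0.13) and the Rieske protein Uqcrfs1 at -0.01 (-0.10 to 0.08). Cyc1, the cytochrome c1 of the same complex, which the name rule leaves out, fell by 0.32 (SE 0.06, adjusted p = 0.0303).

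Complex IV, cytochrome c oxidase, is represented by 9 general subunits and 6 tissue isoforms. Its catalytic subunits are encoded by mitochondrial DNA. All 9 general subunits were below 0 after Cre, with a median of -0.29, and Cox7b and Cox5a fell. Cox7b, a small membrane subunit, read 9.30, 9.69 and 9.59 at 0 weeks, 9.0 and 8.53 at 2 weeks, then 8.93 and 8.98 at 4 weeks. It fell by 0.67 after Cre (SE 0.14, adjusted p = 0.0382, limma), with every array below the controls. Cox5a, a matrix-side subunit that binds a thyroid hormone metabolite, read 10.39, 10.25 and 10.40 at 0 weeks, 10.18 and 9.96 at 2 weeks, then 10.03 and 10.04 at 4 weeks. Its fall was small, 0.29 after Cre (SE 0.07, adjusted p = 0.0444), a 1.22-fold lower level.

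Of the general isoforms that have a tissue-specific partner, 0 passed the test. Cox4i1, the regulatory subunit that binds ATP, was at -0.15 after Cre (SE 0.07, adjusted p = 0.248, limma) and lay below all controls on every array. Cox6a1 was at -0.19 (SE 0.08, adjusted p = 0.189), Cox6b1 at -0.31 (SE 0.14, adjusted p = 0.239), Cox7a2 at -0.41 (SE 0.15, adjusted p = 0.146) and Cox8a at -0.37 (SE 0.11, adjusted p = 0.0951). Cox6a1 and Cox8a were also below all controls on all 4 arrays, while Cox6b1 and Cox7a2 overlapped the controls on 2 week replicate 1. Ndufa4, first described in complex I and now placed in complex IV, was at -0.04 (95% interval -0.15 to 0.07), and Cox6c at -0.25 (-0.54 to 0.04).

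The 6 tissue isoforms of complex IV had a median of 0.01 after Cre. Cox8b, the heart and muscle form, read 5.63, 5.54 and 5.63 at 0 weeks, 5.43 and 5.51 at 2 weeks, then 5.91 and 5.81 at 4 weeks. It rose by 0.26 at 4 weeks (SE 0.06, adjusted p = 0.047, limma), 1.20-fold, the only member called higher, and was at -0.13 at 2 weeks (SE 0.06, adjusted p = 0.268). It passed in 3 of 15 alternative settings. No detection call came with the values, so whether its signal lay above background is not known. Of 10 other muscle markers 0 were called, and their summed linear signal was 996 to 1110 on the arrays after Cre and 1050 to 1070 on the controls.

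Cox6b2, the testis form, read 6.52, 6.61 and 6.48 at 0 weeks, 6.63 and 6.36 at 2 weeks, then 7.78 and 6.82 at 4 weeks. The 4 week arrays were above the rest but far apart, and the difference of 0.76 did not pass (SE 0.27, adjusted p = 0.16, limma). Of 3 testis markers 0 were called, with summed signals of 238 to 254 after Cre and 244 to 254 in controls. Cox7a1, the muscle form, was at -0.27 after Cre (SE 0.13, adjusted p = 0.252). Cox4i2, Cox6a2 and Cox8c were at -0.01, -0.01 and 0.04, and each had an identical value, equal to the last deposited digit, on at least 4 of the 7 arrays, as had 4 of the 79 members in all. A value repeated on 2 or more arrays occurred in 16 of the 79 members and in 58.4% of all genes, and what produced them is not stated in the sources used here.

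Complex V, the ATP synthase, consists of a catalytic F1 head, stalks and a ring in the membrane. Atp5g3, which encodes the c subunit of the proton-driven ring, read 12.53, 12.44 and 12.52 at 0 weeks, 12.15 and 11.67 at 2 weeks, then 12.03 and 11.92 at 4 weeks. It fell by 0.56 after Cre (SE 0.12, adjusted p = 0.0357, limma), with no overlap between arrays, and it was the only 1 of 12 genes of complex V called. The other stalk and membrane subunits had differences between -0.53 (Atp5k) and 0.13 (Atp5pb). Atp5k, Atp5mpl, Atp5j2, Atp5j and Atp5o were below all controls on all 4 arrays, with adjusted p-values from 0.0675 (Atp5k) to 0.129 (Atp5o).

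In the F1 head of complex V, 0 of 5 subunits were called. Atp5b, which holds the catalytic sites, read 13.35, 13.39 and 13.41 at 0 weeks, 13.42 and 13.62 at 2 weeks, then 13.57 and 13.54 at 4 weeks. All 4 arrays after Cre were above the controls, by 0.15 on average (95% interval 0.01 to 0.29), but the adjusted p was 0.145 (limma). Atp5a1 was at 0.11 (0.00 to 0.22, adjusted p = 0.192) and Atp5c1, the rotating shaft, at -0.01 (-0.09 to 0.08). Of the small subunits at the foot of the shaft, Atp5d was at -0.50 (SE 0.13, adjusted p = 0.0662) and Atp5e at -0.56 (SE 0.21, adjusted p = 0.153), both below all controls on every array after Cre.

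Across complexes, the core, catalytic or F1 subunits and the remaining subunits can be set side by side. The grouping was chosen with these values in view, so it is a description with no test. The 15 core, catalytic or F1 subunits of complexes I, II, III and V had a median of -0.01 after Cre, with 9 below 0 and 0 called. The name rule keeps Cyc1, the cytochrome c1 of complex III, out of the 15, and Cyc1 fell by 0.32 (limma, adjusted p = 0.0303). The 49 other subunits, without the tissue isoforms, had a median of -0.33, with 46 below 0, 10 called lower and 33 below all controls on every array after Cre. Of all genes, 6.12% were called lower and 12.2% lay below all controls on every array after Cre. The ranges overlapped, from -0.56 to 0.15 in the 15 and from -1.03 to 0.13 in the 49. Leaving out any array kept the medians between -0.03 and 0.01 for the 15 and between -0.41 and -0.24 for the 49. By complex, the medians after Cre were -0.27 (I), -0.15 (II), -0.39 (III), -0.19 (IV), -0.37 (V) and -0.26 for the assembly factors and relatives.

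**Figure D4:**
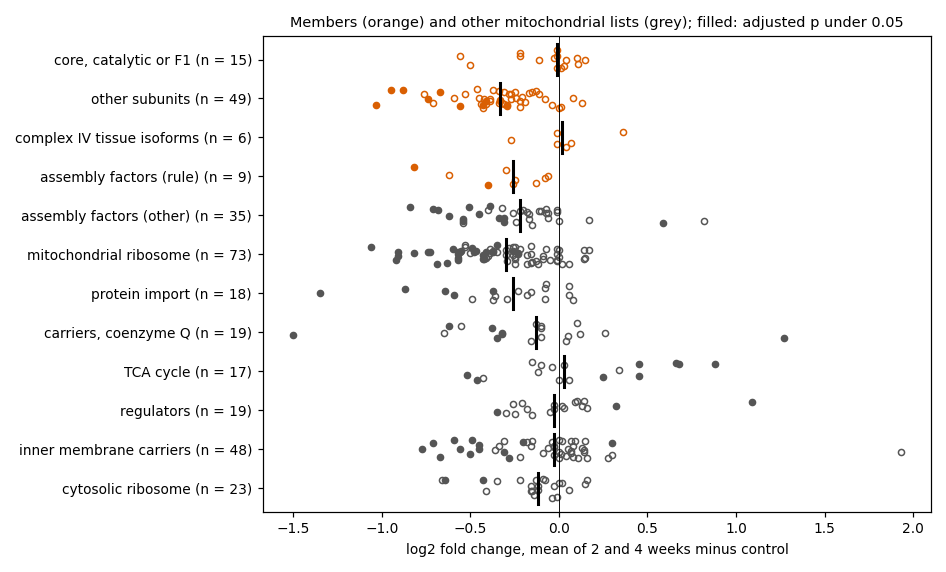
Log2 fold change after Cre (x axis) of every gene of the 4 classes of members (orange) and of 8 other gene lists (grey); each circle is a gene, filled where its adjusted p was under 0.05, and black bars are medians. The bars of the 49 other subunits (-0.33) and of the mitochondrial ribosome (-0.30) lie left of 0, and those of the 15 core, catalytic or F1 subunits (-0.01) and of the TCA cycle (0.03) lie near it.

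Other genes needed to build the complexes were read from lists of genes outside the name rule. Of 35 measured assembly factors outside the name rule, 12 fell and 1 rose after Cre, with a median of -0.22. Of all genes, 6.12% fell and 6.79% rose after Cre, which are the shares to set beside this list and the lists that follow. Uqcc1, an assembly factor of complex III, read 8.62, 8.40 and 8.54 at 0 weeks, 7.90 and 7.90 at 2 weeks, then 7.73 and 7.69 at 4 weeks. It fell by 0.71 (SE 0.06, adjusted p = 0.00424, limma), without overlap. Coa6 (-0.68, adjusted p = 0.0125) and Coa5 (-0.62, adjusted p = 0.0102), which act in complex IV assembly, fell, as did Sdhaf1 (-0.84, adjusted p = 0.0395) and Sdhaf2 (-0.31, adjusted p = 0.0154), which serve Sdhb and Sdha. Acad9, an acyl-CoA dehydrogenase that also assembles complex I, rose by 0.59 (SE 0.13, adjusted p = 0.0414).

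The mitochondrial ribosome, which makes the subunits encoded by mitochondrial DNA, was read beside the members. Of its 73 measured proteins, 28 fell (6.12% of all genes did) and 0 rose after Cre, with a median of -0.30. Below all controls on all 4 arrays lay 52 of them, against 12.2% of all genes. Mrpl49 fell by 0.82 (SE 0.05, adjusted p = 0.00209, limma) and Mrps17 by 0.74 (SE 0.07, adjusted p = 0.00626). Of 18 genes of mitochondrial protein import, 5 fell and 0 rose, with a median of -0.26. Timm9, a small chaperone of the intermembrane space, read 8.06, 8.20 and 8.14 at 0 weeks, 7.24 and 6.51 at 2 weeks, then 6.64 and 6.73 at 4 weeks, and fell by 1.35 (SE 0.17, adjusted p = 0.0102).

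Among 19 measured electron carriers and coenzyme Q genes, 5 fell and 1 rose, with a median of -0.13. Coq3, a methyltransferase of coenzyme Q synthesis, read 8.99, 9.16 and 9.27 at 0 weeks, 10.38 and 10.43 at 2 weeks, then 10.33 and 10.48 at 4 weeks, and rose by 1.27 (SE 0.08, adjusted p = 0.00254, limma). Coq10b, a coenzyme Q binding protein, fell by 1.5 (SE 0.14, adjusted p = 0.00576). Coq2, Coq9, Cyc1 and the proline dehydrogenase Prodh also fell, by 0.38, 0.35, 0.32 and 0.62. The somatic cytochrome c gene Cycs was at -0.10 (95% interval -0.42 to 0.22). It read between 5.68 and 6.24, below the array medians of 7.07 to 7.09, and whether this signal lay above background is not known.

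The TCA cycle feeds NADH and succinate to complexes I and II. Of its 17 measured genes, 6 rose and 2 fell, with a median of 0.03. Citrate synthase (Cs), which opens the cycle, read 10.25, 10.38 and 10.22 at 0 weeks, 10.82 and 10.97 at 2 weeks, then 10.94 and 11.12 at 4 weeks, and rose by 0.68 (SE 0.07, adjusted p = 0.00686, limma). Idh3g, a subunit of isocitrate dehydrogenase, rose by 0.88 (SE 0.15, adjusted p = 0.0215). Fumarase (Fh1) fell by 0.46 (SE 0.03, adjusted p = 0.00396) and the pyruvate dehydrogenase subunit Pdha1 by 0.52 (SE 0.06, adjusted p = 0.00807).

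Of 19 measured regulators of mitochondrial gene expression, 2 rose and 1 fell, with a median of -0.03. Nfe2l2, the oxidative stress transcription factor, rose by 1.09 (SE 0.11, adjusted p = 0.00615, limma), and Gabpb1, the partner of GABPA, by 0.32 (SE 0.06, adjusted p = 0.0306). Pprc1, a coactivator of the PGC-1 family, fell by 0.35 (SE 0.06, adjusted p = 0.0232). Nrf1 was at 0.13 (95% interval -0.06 to 0.33), Gabpa at 0.02 (-0.06 to 0.11) and Ppargc1a, the coactivator PGC-1 alpha, at 0.16 (-0.49 to 0.80). Tfam, which packages mitochondrial DNA and helps start its transcription, was at -0.30 (-0.57 to -0.03, limma, adjusted p = 0.147).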

How the data were processed

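Whole liver RNA on 7 arrays was analysed in 3 groups taken from the sample labels (3, 2 and 2 arrays). The authors deposited 1 log2 signal for each probe set on each array, between 3.15 and 14.72, and the log2 scale is inferred from this range. The submitters' processing notes list GCOS 1.4 and no role for it. How signals were summarised, background-corrected and normalised is not stated in the sources used here. No detection call, scan date or slide came with the values. For arrays, their number limits the precision.

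Of 21093 probe sets, the platform annotation gave 17709 a single gene symbol and 187 more than a single symbol, and left 3197 unnamed here. By gene number, 17648 matched RefSeq genes (GRCm38.p6), which changed 0 symbols. The probe set with the highest mean per gene was kept, leaving 16819 genes. The members held 80 probe sets for 79 genes. limma 3.58.1 (R 4.3.3, lmFit and eBayes) was fitted once to the 3 groups over all genes, with 4 residual and 1.69 prior degrees of freedom. Tests were two-sided with Benjamini-Hochberg adjustment over the 16819 genes. After Cre is the mean of the 2 and 4 week groups minus control.

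The members, gene lists and tests were chosen with earlier results of these data known. The genes named with values were every member called, the isoform sets of complex IV, the Sdh genes, and in each complex the uncalled members with the highest mean signal. Others were named after their values were seen. The fit was first tested on 10 simulated draws of 16819 genes with 200 changed. Of log2 changes of 0.5 and 1, 45.9% and 80.8% were found at 2 weeks, 46.3% and 81.1% at 4 weeks, and 58.7% and 88.8% after Cre. Of the calls in these draws, 6.08% were false at 2 weeks, 6.29% at 4 weeks and 5.4% after Cre. The draws used independent normal noise for each gene and no repeated values, so the rates in the real data may differ. Alternatives changed the scaling, the filter, the probe set rule, the prior, the groups in the fit and the arrays left out.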

Additional observations from a re-analysis of the deposited data

Results flagged for a closer look

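For 2 members the arrays at 2 weeks and at 4 weeks lay on opposite sides of the control mean. Cox8b, the heart and muscle isoform of a complex IV subunit, was 0.39 higher at 4 weeks than at 2 weeks on the log2 scale. Its readings were 5.91 and 5.81 at 4 weeks against 5.43 and 5.51 at 2 weeks, with a control mean of 5.60. The test of the difference between the times did not pass (limma, adjusted p = 0.315). Atp5c1, the shaft subunit of the ATP synthase, differed by 0.07 in the same direction, with 12.83 and 12.81 at 4 weeks against 12.73 and 12.78 at 2 weeks. This difference did not pass either (limma, adjusted p = 0.8).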

How the results depend on the processing

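The direction of the members' median was below 0 in every alternative tried at 2 weeks, at 4 weeks and after Cre, whereas the counts of calls moved. The 2 genes lower at 2 weeks became 4 with quantile normalization (3.27% of all genes fell there) and 1 with subunits only. With only genes at or above the median signal (7.25), 8 of 71 fell, against 9.07% of all genes. With a fit of the 2 groups compared, 0 fell (0.624% of all genes). The 4 lower at 4 weeks became 15 with the median filter (12.9% of all genes) and 19 with a fit of 2 groups (5.63%). The 12 lower after Cre became 27 with the filter (16% of all genes). Cox8b, the 1 gene higher at 4 weeks, left 0 with quantile normalization, arrays centred on their medians, a fit of 2 groups and all probe sets tested, and was not tested under the filter, which also gives 0. Leaving out each array in turn (3 residual degrees of freedom) gave 0 to 25 lower and 0 to 1 higher at 2 weeks, 0 to 19 lower and 0 higher at 4 weeks, 1 to 36 lower and 0 to 1 higher after Cre, and a median from -0.38 to -0.12 at 2 weeks. In the same fits 0.101% to 6.4% of all genes were lower at 2 weeks, 0.155% to 5.63% at 4 weeks and 1.3% to 8.1% after Cre. Without 2 week replicate 1, 10 of the 12 genes that fell after Cre were still called, and without replicate 2, 5 of 12. Members below all controls on every array after Cre, 43 in all, numbered 43 to 53 when an array was left out (13.1% to 15.6% of all genes), a count that leaving out an array cannot lower. Leaving out an array changed the sign after Cre of 9 of 79 members, each within 0.08 of 0 in the full data: Ndufaf3, Ndufa6, Ndufa7, Ndufs7, Ndufv1, Uqcrfs1, Atp5c1, Sdhb (-0.01 to 0.08; -0.01 without control replicate 1 and without 4 week replicate 1) and Cox6a2 (-0.05 to 0.02; 0.02 without 2 week replicate 1 and 0.01 without 4 week replicate 2). These were uncalled, and the cause was not tested.

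With the replicate number as a block, 0 members were called at 2 weeks, at 4 weeks or after Cre, with 2 residual degrees of freedom, and of all genes 3 fell and 2 rose after Cre. The labels share only numbers and do not state that the arrays are paired. Deviations of same-numbered arrays correlated at 0.11 between 2 and 4 weeks and at -0.07 to 0.01 with controls. Among the members, replicate 2 read lower than replicate 1 for 60 genes at 2 weeks and for 65 at 4 weeks. Whether same-numbered arrays share an effect on the members was not tested.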

Other observations

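Carriers of the inner mitochondrial membrane and the outer membrane channels were also read after Cre. Of 48 measured Slc25a, Ucp and Vdac genes, 12 fell and 1 rose, with a median of -0.03. Slc25a1, the citrate carrier, read 11.45, 11.45 and 11.34 at 0 weeks, 10.99 and 10.38 at 2 weeks, then 10.55 and 10.65 at 4 weeks, and fell by 0.77 (SE 0.15, adjusted p = 0.0271, limma). Slc25a38, a glycine carrier of haem synthesis, fell by 0.71 (SE 0.08, adjusted p = 0.00894), and Vdac2, an outer membrane channel, by 0.56 (SE 0.05, adjusted p = 0.00579). Slc25a46, which its symbol alone places in this list, rose by 0.30 (SE 0.07, adjusted p = 0.0437, limma). Slc25a3, the phosphate carrier that supplies the ATP synthase, was at 0.09 (95% interval -0.06 to 0.24), and Vdac1 at 0.00 (-0.11 to 0.12).

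Genes of the cytosolic ribosome were listed by symbol (Rpl or Rps followed by a digit). Of the 23 measured, 2 fell and 0 rose after Cre, with a median of -0.12. Rpl8 fell by 0.43 (SE 0.07, adjusted p = 0.0193, limma). Rpl7l1, which its symbol alone places in this list, fell by 0.64 (SE 0.07, adjusted p = 0.00746).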
